A study of Mus musculus with 8 samples.

Results

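The 33 genes described here act in the response to low oxygen and in glycolysis, and each was taken by its gene symbol from a list. The list was drawn up with earlier results of these data known. Where a gene had several features, the one with the highest mean over all 8 arrays stood for it. All 33 were among the 17234 genes tested. The platform's symbol gave 32 of them, and Pkm was found under its older symbol Pkm2 by its accession. They were measured in whole lungs of newborn mice of the C57Bl/6J background on 8 one-colour (Cy3) Agilent arrays. Of these, 4 came from pups labelled Fgf10 +/-, heterozygous for the lung growth factor gene Fgf10, and 4 from wild-type pups. Both groups breathed 85% oxygen from postnatal day 0 to day 3, and no array came from room air, so each difference is one between genotypes under high oxygen. The titles call the heterozygous group TG. The series' title speaks of a knock-down, and the sources used here name neither the allele nor any pooling of pups. The series' design text calls the arrays independent samples, but nothing names litters, so a p-value here measures no more than how these 8 samples vary, which may in part be technical.

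Cells read oxygen through the transcription factors HIF-1 and HIF-2. Their alpha subunits are hydroxylated by prolyl hydroxylases when oxygen is present, bound by the VHL protein and degraded. When oxygen is short the alpha subunits persist and raise genes for glucose uptake, glycolysis, lactate export, vessel growth and control of mitochondria. In the fetal and newborn lung the pathway acts in vessel growth and in epithelial maturation, and breathing high oxygen is known to lower HIF signalling.

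The hypoxia and glycolysis genes did not move together between the genotypes. Ak4, a nucleotide kinase of the mitochondrial matrix, rose 1.95-fold in the lungs labelled Fgf10+/-, and it was the 1 member of 33 called (limma adjusted p below 0.05). The call was lost in 7 of the 8 runs that dropped 1 array each. It was also lost with Xist as a covariate (limma adjusted p = 0.068), with same-numbered arrays paired (0.0788) and without the variance trend of the fit (0.173). The called member is 3.03% of the members, beside 0.795% of all tested genes, a gap that rests on this 1 gene. Adm, which encodes the vasodilator peptide adrenomedullin, was 1.8-fold lower by its means but missed the threshold. None of the 14 genes placed under upper and lower glycolysis, among them the regulator gene Pfkfb3, was called. Of these, 2 had an unadjusted p below 0.05 (limma). Their differences ran from -0.51, that of Pfkfb3, to 0.39 on the log2 scale. The median difference over the members was -0.05 on the log2 scale, and over all tested genes it was 0.00693. By sign alone, 11 members were higher and 22 lower in the Fgf10+/- lungs, while 51.3% of all tested genes were higher. An unadjusted p below 0.05 was found for 6 members, 3 higher and 3 lower, which is 18.2% of the members beside 11.2% of all tested genes. The groups did not overlap in 2 members, 6.06% beside 6.64% of all tested genes, so that share lay near the background.

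**Figure D1:**
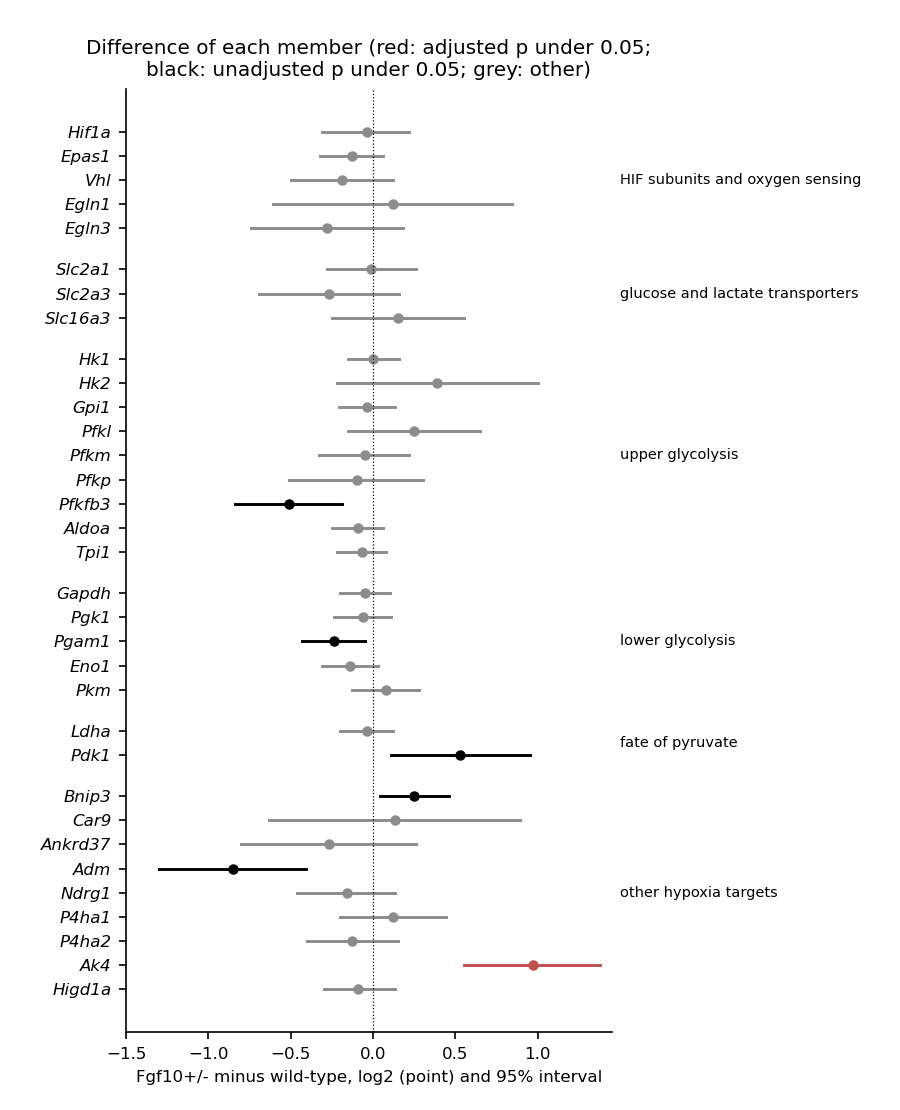
The difference of each of the 33 members, Fgf10+/- minus wild-type on the log2 scale (horizontal axis), with its 95% confidence interval from limma, grouped by role. Ak4 (red) is the 1 called member at 0.97, Adm lies at -0.85, and most glycolytic enzymes lie close to 0 with short intervals.

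The arrays of a group were alike, with Pearson correlations over the tested genes between 0.975 and 0.985 within groups and between 0.974 and 0.987 across them. Fgf10 itself was not lower in the heterozygous group. Its brightest feature averaged 8.04 there with an SD of 0.20, against 7.81 with an SD of 0.28 in the wild-type group (log2 intensity, 4 arrays a group, two-sided exact permutation p = 0.2), and all 10 of its features were higher by sign. The readout thus does not bear out the genotype labels, and every direction given here rests on those labels. Which part of the gene the allele alters is not stated, so whether these features could show its loss is unknown. Defining genes of lung epithelium were bright: the 8 markers of surfactant-making type 2 cells of the alveoli summed to between 17.02 and 17.21 (log2 of summed intensity) over all arrays. Markers of some cell types differed between the groups. Of 6 measured markers of dividing cells 5 were called lower in the Fgf10+/- lungs, their summed level lying between 10.56 and 11.38 there and between 11.75 and 12.71 in wild-type lungs. Of the 8 type 2 cell markers 5 were called higher, with sums of 17.15 to 17.21 against 17.02 to 17.12. Of 4 lymphatic markers 1 was called lower, and none of 8 macrophage markers was called, although 4 had an unadjusted p below 0.05 (limma), with sums of 12.88 to 12.93 against 12.93 to 13.26. Nor was any of 5 markers of ciliated cells called, with 5 higher by sign and 3 of them at an unadjusted p below 0.05 (limma), sums of 12.47 to 12.69 against 11.83 to 12.52. None of 4 smooth muscle markers was called, with 4 lower by sign and 3 of them at an unadjusted p below 0.05 (limma), sums of 15.10 to 15.32 against 15.22 to 15.64. No list had a marker at 0. The part of these cell types in the results below was not tested, and in whole lung fewer cells of a type and less RNA per cell cannot be told apart. Xist, read from the inactive X chromosome of females, was between 6.29 and 6.85 in arrays 1 and 4 labelled Fgf10+/- and wild-type arrays 1, 2 and 4, and between 1.93 and 2.63 in the other 3.

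The subunits of HIF and the proteins that sense oxygen came first in the pathway, and none of the 5 was called (none had an unadjusted p below 0.05, limma). Their differences ran from -0.28 to 0.12. Hif1a, which encodes the alpha subunit of HIF-1, read 8.41, 8.29, 8.23 and 8.16 in Fgf10+/- arrays 1 to 4 and 8.35, 8.22, 8.48 and 8.21 in wild-type arrays 1 to 4 (log2 intensity). The groups lay over each other, with a difference of -0.04 (95% CI -0.31 to 0.22). HIF-1 alpha is regulated mostly through the stability of its protein, which these arrays do not measure. A 2nd Hif1a feature, at a mean of 2.72, fell below the filter level of 2.76 and was not tested; it differed by 0.62. Epas1, which encodes the alpha subunit of HIF-2 and is active in lung endothelium, read 14.97, 15.00, 15.01 and 15.09 in Fgf10+/- arrays and 14.94, 15.17, 15.06 and 15.40 in wild-type arrays. Wild-type array 4 was highest and the groups overlapped, with a difference of -0.13 (95% CI -0.32 to 0.06), and of -0.0409 without that array. This feature lay near the highest value in the table, 15.99. Its other features, at means of 9.84 and 9.31, differed by -0.09 and -0.20.

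Vhl, the subunit of the ubiquitin ligase that recognises hydroxylated HIF, read 8.67, 8.85, 8.26 and 8.97 in Fgf10+/- arrays and 8.84, 8.85, 8.97 and 8.87 in wild-type arrays. Array 3 of the Fgf10+/- group was the lowest, and the difference was -0.19 (95% CI -0.50 to 0.12) with it and -0.0504 without it. The prolyl hydroxylase gene Egln1 was dim and scattered, at 3.86, 4.26, 4.09 and 4.22 in Fgf10+/- arrays and 4.04, 3.18, 4.34 and 4.41 in wild-type arrays. Wild-type array 2 stood lowest, the difference was 0.12 (95% CI -0.61 to 0.84), and without that array it was -0.154. Egln3, a prolyl hydroxylase gene that is itself a HIF target, read 6.61, 6.69, 6.04 and 6.55 against 6.41, 7.15, 6.74 and 6.72. The groups overlapped, with a difference of -0.28 (SE 0.21), and its dimmer feature had the opposite sign, at 0.16, so the averaged features gave -0.058. Without Fgf10+/- array 3 the difference was -0.136, and without wild-type array 2 it was -0.148.

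The carriers of glucose and lactate were not called either (0 of 3, none with an unadjusted p below 0.05 in limma). Slc2a1 encodes the glucose transporter GLUT1, a classic HIF target, and differed by -0.01 (95% CI -0.28 to 0.26), a value whose sign changed with array weights and with 3 of the arrays left out. Slc2a3, the glucose transporter GLUT3, differed by -0.27 (SE 0.20), and by -0.0994 without Fgf10+/- array 2. Slc16a3, which encodes the lactate exporter MCT4, differed by 0.15 (SE 0.18), with both of its features alike at 0.15 and 0.17. Its spread was uneven, with an SD of 0.08 among Fgf10+/- arrays and 0.48 among wild-type arrays. Wild-type array 1 had the highest mean deviation of the 3 carriers, 0.38, against -0.18 to 0.08 in the other 7 arrays, and the difference of Slc16a3 was 0.361 without that array and 0.000165 without wild-type array 4.

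**Figure D2:**
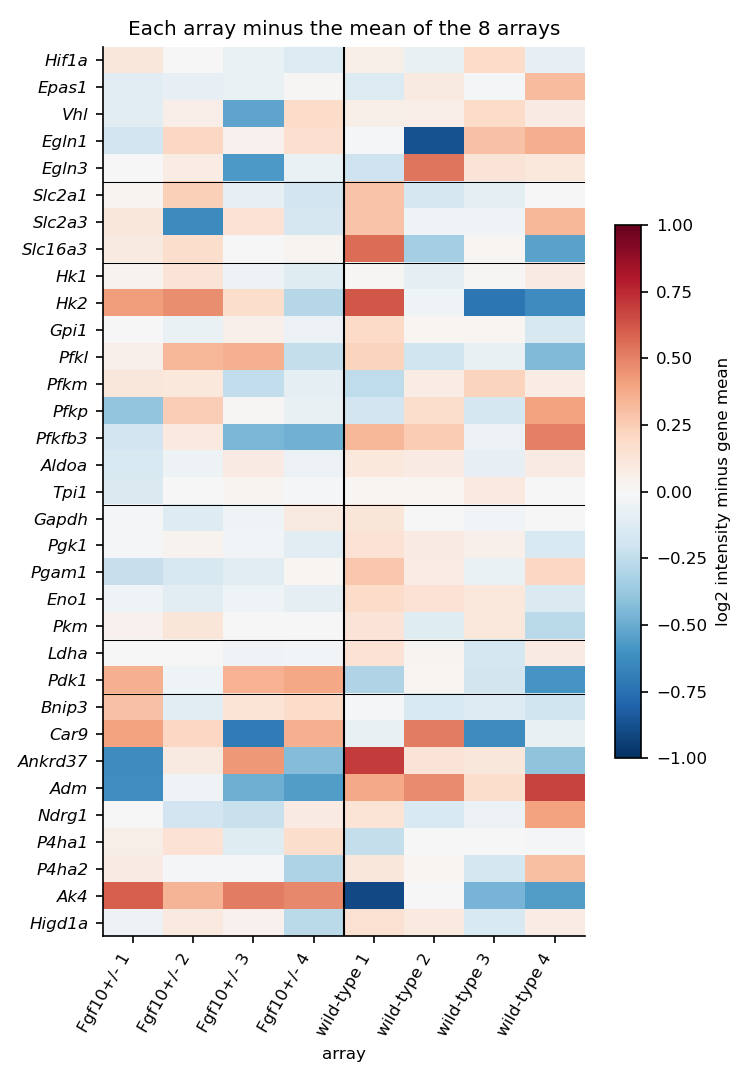
Heat map of the 33 members (rows, grouped by role) over the 8 arrays (columns), each cell giving the deviation in log2 intensity from the mean of its row. Ak4 is above its mean in all 4 Fgf10+/- arrays and Adm below it. Most glycolytic enzymes show pale rows on both sides, while Hk2, Pfkfb3, Pfkl and Pfkp show deeper colours in some arrays.

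Upper glycolysis turns glucose into triose phosphates. Of the 9 genes placed here, enzymes and a regulator, none was called and 1 had an unadjusted p below 0.05 (limma). That gene was Pfkfb3, whose product makes fructose 2,6-bisphosphate, the strongest activator of phosphofructokinase. It read 8.75, 9.04, 8.48 and 8.46 in Fgf10+/- arrays and 9.27, 9.19, 8.88 and 9.44 in wild-type arrays. Wild-type array 3 lay below Fgf10+/- array 2, so the groups overlapped. The difference was -0.51 (95% CI -0.84 to -0.19, unadjusted p = 0.00473, limma adjusted p = 0.174). A dimmer feature, at a mean of 3.73, had -0.17.

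The phosphofructokinase subunits themselves showed no common direction. Pfkl differed by 0.25 (SE 0.19; 0.143 without wild-type array 4), Pfkm by -0.05 (SE 0.13) and Pfkp by -0.10 (SE 0.19). Pfkm was read by 10 features, and the other 9 differed by -0.21 to 0.08. The 2nd Pfkp feature, at a mean of 3.29, had the opposite sign at 0.67, so Pfkp took a value of 0.285 when features were averaged. Of the hexokinases, which trap glucose by phosphorylation, Hk1 differed by 0.00 (95% CI -0.15 to 0.16). Hk2, the inducible hexokinase and a HIF target, differed by 0.39 (95% CI -0.22 to 1.00), with an SD of 0.62 among wild-type arrays, and by 0.66 without wild-type array 1 but 0.211 without wild-type array 3 and 0.243 without wild-type array 4. The isomerase gene Gpi1 differed by -0.04 (SE 0.08), the aldolase gene Aldoa by -0.09 (SE 0.07) and the triose phosphate isomerase gene Tpi1 by -0.07 (SE 0.07). A dimmer Tpi1 feature, at a mean of 8.20, differed by -0.32, and the averaged features by -0.192.

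In lower glycolysis, which turns triose phosphates into pyruvate and yields ATP, none of 5 was called and 1 had an unadjusted p below 0.05 (limma). Pgam1, a phosphoglycerate mutase gene, read 11.97, 12.04, 12.10 and 12.22 in Fgf10+/- arrays and 12.47, 12.28, 12.14 and 12.41 in wild-type arrays. Wild-type array 3 fell below Fgf10+/- array 4, and the difference was -0.24 (95% CI -0.43 to -0.05, unadjusted p = 0.0158, limma adjusted p = 0.296). The dehydrogenase gene Gapdh differed by -0.05 (95% CI -0.20 to 0.10). Gapdh had 8 features with means from 9.33 to 14.94, and all 8 were lower in the Fgf10+/- lungs, by -0.29 to -0.02. The kinase gene Pgk1 differed by -0.06 (SE 0.08), the enolase gene Eno1 by -0.14 (SE 0.08) and the pyruvate kinase gene Pkm by 0.08 (SE 0.09).

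Over the 14 genes of upper and lower glycolysis the median difference was -0.06, with 4 higher and 10 lower by sign. The intervals bound only what the brightest feature of each gene could have missed. Some dimmer features fell outside them, such as those of Tpi1 at -0.32, Gapdh at -0.29 and Pfkp at 0.67. In 19 of the 33 members (57.6%) the 95% interval lay within 0.5 of 0 on the log2 scale, a 1.41-fold difference, as it did in 40.1% of all tested genes. Genes such as Gapdh, Pgk1, Eno1 and Ldha have near-identical copies in the mouse genome. No probe sequences were used, so whether those copies add to the signal was not tested.

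Pyruvate is either reduced to lactate or enters mitochondria. Neither of the 2 members at this branch was called, and 1 had an unadjusted p below 0.05 (limma). Ldha, which encodes the lactate dehydrogenase subunit that HIF raises, differed by -0.04 (95% CI -0.20 to 0.12) at its brightest feature. All 3 of its features were lower by sign. The dimmer ones, at means of 10.54 and 8.42, differed by -0.19 and -0.16, and the averaged features by -0.128. Pdk1 encodes a kinase that shuts pyruvate dehydrogenase. It read 6.95, 6.55, 6.94 and 6.98 in Fgf10+/- arrays and 6.29, 6.61, 6.41 and 6.00 in wild-type arrays. Array 2 of the Fgf10+/- group fell just below wild-type array 2, so the groups overlapped by this pair alone. The difference was 0.53 (95% CI 0.11 to 0.95, unadjusted p = 0.0176), and it did not pass (limma adjusted p = 0.307).

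The remaining 9 members are hypoxia targets with roles outside the glycolytic chain, and they held both the largest rise and the largest negative difference. Ak4 transfers phosphate between nucleotides in the mitochondrial matrix and is raised by HIF-1. It read 7.65, 7.39, 7.56 and 7.53 in Fgf10+/- arrays and 6.15, 7.05, 6.59 and 6.49 in wild-type arrays. Every Fgf10+/- array lay above every wild-type array, the former tightly (SD 0.11) and the latter with an SD of 0.37. The difference was 0.97 (95% CI 0.55 to 1.38, limma adjusted p = 0.0363). In the 8 runs that dropped 1 array each, the limma adjusted p ran from 0.0347 to 0.121, and the call stayed in 1 of them, that without wild-type array 2. The difference itself ran from 0.824 to 1.13 in those runs. A 2nd Ak4 feature, at a mean of 2.45, lay below the filter level and differed by 0.26, so the rise rests on 1 feature.

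Adm read 5.69, 6.27, 5.82 and 5.75 in Fgf10+/- arrays and 6.69, 6.78, 6.48 and 6.98 in wild-type arrays. All 4 Fgf10+/- arrays lay below all 4 wild-type arrays. The difference was -0.85 (95% CI -1.30 to -0.41, unadjusted p = 0.00113, limma adjusted p = 0.086). It ran from -0.98 to -0.769 with 1 array left out, and the adjusted p stayed above 0.05 in all 8 such runs. Of 4 lymphatic markers 1 was called lower (median difference -0.52), and of 7 markers of blood vessel endothelium none was called or had an unadjusted p below 0.05 in limma (median -0.04). Their part in the difference of Adm was not tested.

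Bnip3, a receptor of the outer mitochondrial membrane that marks mitochondria for removal, read 11.19, 10.78, 11.03 and 11.08 in Fgf10+/- arrays and 10.88, 10.74, 10.77 and 10.70 in wild-type arrays. Only Fgf10+/- array 2 lay within the wild-type range, and the difference was 0.25 (95% CI 0.04 to 0.46, unadjusted p = 0.0211, limma adjusted p = 0.331). Its 3 features had the same sign, at 0.20 to 0.34. Higd1a, another mitochondrial target, which acts on the respiratory chain, differed by -0.09 (SE 0.10). Ankrd37, a HIF-1 target with ankyrin repeats, differed by -0.27 (SE 0.25), and its SDs of 0.48 and 0.45 were among the widest of the members, and with 1 array left out the difference ran from -0.458 to -0.0813. The carbonic anhydrase gene Car9, which helps cells export acid, was dim at a mean of 4.24 against 4.11 and differed by 0.13 (95% CI -0.63 to 0.89). Ndrg1, a stress-responsive gene, differed by -0.16 (SE 0.14), and by -0.0571 without wild-type array 4. P4ha1 and P4ha2, catalytic subunits of the enzyme that hydroxylates proline in collagen, differed by 0.12 (SE 0.15) and -0.13 (SE 0.13). With 1 array left out these ran from 0.0647 to 0.185 and from -0.21 to -0.0485.

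**Figure D3:**
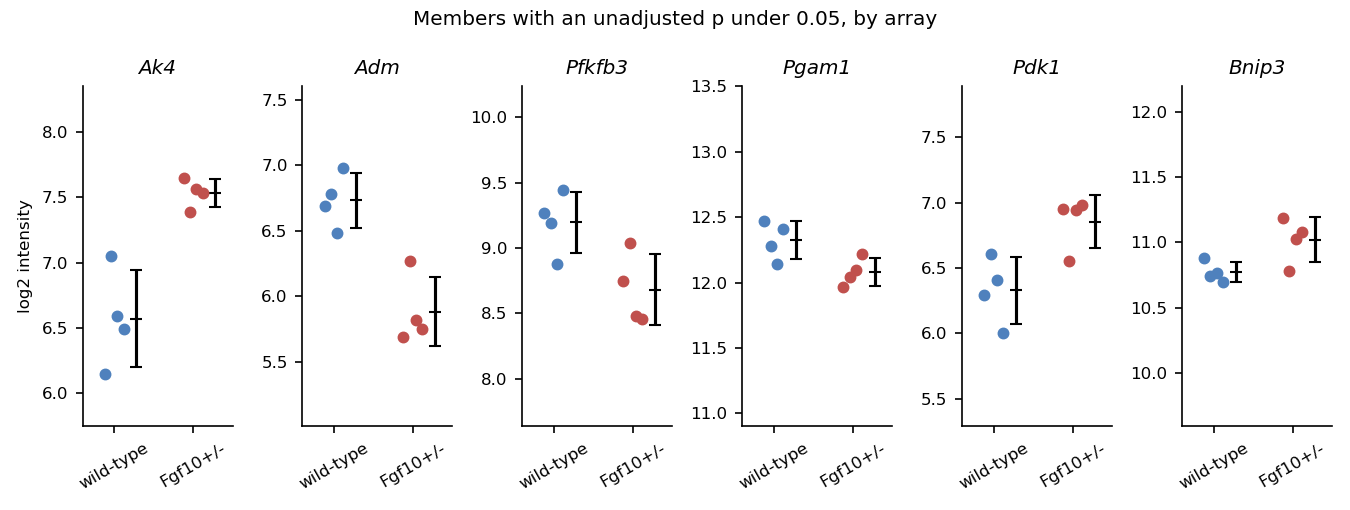
Log2 intensity of the 6 members with an unadjusted p below 0.05, with 1 point for each array (blue, wild-type; red, Fgf10+/-) and the mean ± SD of the 4 arrays beside it; every panel spans the same range of log2 units. Ak4 and Adm separate the groups in opposite directions, and the other 4 overlap by at least 1 array.

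Features of a gene mostly pointed the same way. After the filter, 65 of the 67 member features remained and 13 members had several. Of the 32 features beside the brightest ones, 27 shared the sign of the brightest feature of their gene, and 9 of the 13 members had all features on 1 side. Hk1, Pfkm, Pfkp and Egln3 were the exceptions, and the first of these had a difference of 0.00 at its brightest feature.

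**Figure D4:**
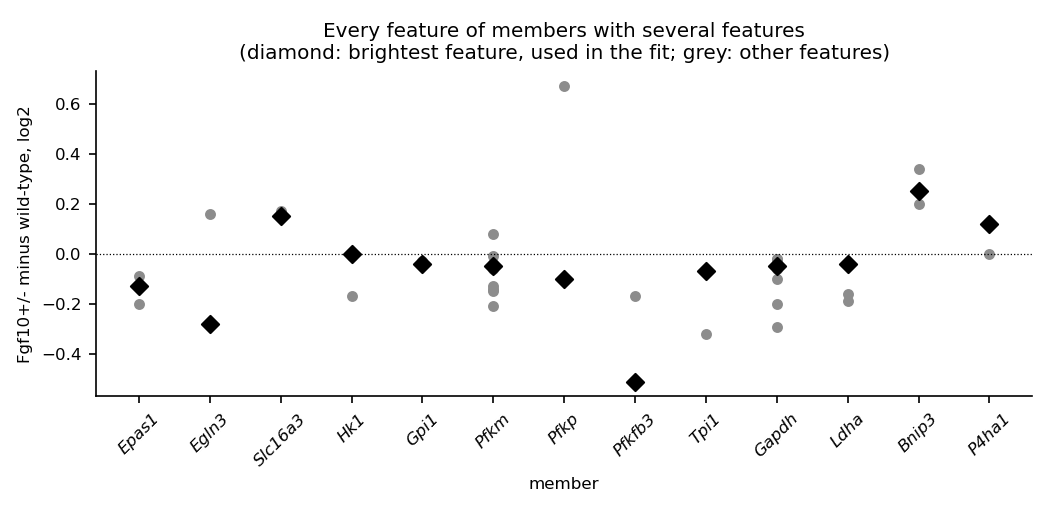
Difference of every feature past the filter (vertical axis, Fgf10+/- minus wild-type, log2) for the 13 members with several features. Diamonds mark the brightest feature, which stood for the gene, and grey points the others. The 3 features of Bnip3 lie between 0.20 and 0.34, while those of Egln3 and Pfkp fall on both sides of 0.

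Most of the members share a promoter sequence feature, but their list holds known HIF targets. A high share of the letters that HIF binds may thus be built into the list and is no independent result. HIF binds the core letters ACGTG or GCGTG, searched here on both strands (so also as CACGT or CACGC) in windows of 250 bases before to 50 bases after the start (RefSeq, GRCm38.p6). An overlapping pair CACGTG, which is the same on both strands, was counted as 1 site. Windows were found for 30 members, and Epas1, Slc2a3 and Ndrg1 had no entry. A core in any window was found in 27 of the 30 members (90.0%) and in 59.6% of the 13509 tested genes with a window. The narrower core ACGTG was found in 22 members (73.3%) and in 26.1% of tested genes; over all 32851 promoter windows the shares were 43.8% and 19.6%. Members had 1.5 windows on average and tested genes 1.25, which favours the members slightly. Ldha and Hk1 had the most sites in 1 window, 5, beside differences of -0.04 and 0.00.

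The windows below belong to the members with the largest differences in each direction among those with an unadjusted p below 0.05 (limma). Ak4 and Pdk1 were higher and Adm and Pfkfb3 lower. For each gene a window with the core letters is shown. Such a window was found in 27 of the 30 members, so these windows say nothing about direction. Each is written 5′ to 3′ along the gene, with capitals marking the core letters.
Ak4, chr4:101419039-101419338, strand +: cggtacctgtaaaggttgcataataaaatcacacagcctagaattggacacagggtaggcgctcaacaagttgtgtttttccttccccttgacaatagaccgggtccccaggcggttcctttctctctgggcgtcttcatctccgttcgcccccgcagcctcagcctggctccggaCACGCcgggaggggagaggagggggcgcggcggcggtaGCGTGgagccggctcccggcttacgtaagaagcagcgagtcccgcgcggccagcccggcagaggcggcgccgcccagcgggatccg
Pdk1, chr2:71872974-71873273, strand +: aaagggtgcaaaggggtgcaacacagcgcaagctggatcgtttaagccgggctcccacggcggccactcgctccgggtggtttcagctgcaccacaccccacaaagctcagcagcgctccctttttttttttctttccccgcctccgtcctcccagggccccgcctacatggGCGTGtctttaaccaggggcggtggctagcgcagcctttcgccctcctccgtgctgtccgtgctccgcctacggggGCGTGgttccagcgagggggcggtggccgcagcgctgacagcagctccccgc
Adm, chr7:110627407-110627706, strand +: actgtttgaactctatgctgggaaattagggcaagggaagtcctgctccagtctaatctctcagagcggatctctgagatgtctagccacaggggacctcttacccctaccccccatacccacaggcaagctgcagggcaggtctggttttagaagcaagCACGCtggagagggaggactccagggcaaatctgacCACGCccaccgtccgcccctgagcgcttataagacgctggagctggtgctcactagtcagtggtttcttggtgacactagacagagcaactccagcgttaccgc
Pfkfb3, chr2:11502041-11502340, strand -: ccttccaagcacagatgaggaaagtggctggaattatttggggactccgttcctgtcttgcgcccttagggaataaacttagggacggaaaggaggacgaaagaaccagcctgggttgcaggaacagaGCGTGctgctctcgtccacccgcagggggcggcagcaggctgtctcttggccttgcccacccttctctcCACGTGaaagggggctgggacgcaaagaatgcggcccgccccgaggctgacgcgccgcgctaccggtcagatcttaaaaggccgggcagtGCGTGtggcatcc

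In the Ak4 window the cores begin at bases -74 and -36, counted from the start with -1 as the last base before it. Ak4 has 3 further windows in the table, and the one farthest downstream holds CACGTG. A further Pdk1 window holds no core letters, and a further Pfkfb3 window holds ACGTG at -60. In the Pdk1 window GCGTG begins at -78 and -2, in the Adm window CACGC begins at -90 and -54, and in the Pfkfb3 window CACGTG begins at -53 between copies of GCGTG at -122 and 38. A match describes the letters only, and no binding was measured here.

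Other genes of the same pathways were read from 12 lists, 174 genes of which 154 were tested. In them 1 gene was called, lower, and 153 were not, with a median difference of 0.03. The called gene was Loxl2, a lysyl oxidase of the matrix and a HIF target, in the list of further hypoxia targets. It read 11.19, 10.89, 11.07 and 10.88 in Fgf10+/- arrays and 11.81, 12.23, 11.51 and 11.94 in wild-type arrays, with no overlap, and differed by -0.87 (limma adjusted p = 0.01). It was called in all 8 runs with 1 array left out, and not without the variance trend of the fit (limma adjusted p = 0.173). In that list 9 of the 40 tested genes, Loxl2 among them, had an unadjusted p below 0.05 (limma), some higher and some lower. That is a larger share than the 1926 of all 17234 tested genes (11.2%). Of the other 39 tested targets there, Tfrc, the transferrin receptor, differed by 0.86 (SE 0.19, limma adjusted p = 0.0516). Pgf, placental growth factor, differed by -1.07 (SE 0.24, limma adjusted p = 0.0673). The groups did not overlap in either gene. Tfrc read 8.11, 7.61, 7.95 and 7.66 against 7.31, 7.08, 6.92 and 6.57. It was called only without wild-type array 1 among the runs with 1 array left out (limma adjusted p = 0.0241). With its features averaged, Tfrc differed by 0.678 (limma adjusted p = 0.161).

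Among HIF partners and regulators none of 18 was called and 3 had an unadjusted p below 0.05 (limma). Hif3a, whose product can restrain HIF, differed by -0.52 (SE 0.15, limma adjusted p = 0.162), and by -0.253 when its features were averaged (limma adjusted p = 0.721). Arnt, the beta subunit that pairs with the alpha subunits, differed by 0.47 (SE 0.18, limma adjusted p = 0.32), with an SD of 0.43 among wild-type arrays, and by 0.207 when features were averaged. Of 13 other glycolytic isozymes none was called and 2 had an unadjusted p below 0.05, the hexokinase domain gene Hkdc1 at 0.36 (SE 0.10) and the aldolase gene Aldoc at 0.34 (SE 0.10). In both of these the groups did not overlap, as in 14 of all 154 listed genes tested (9.09%, beside 6.64% of all tested genes).

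The lists of fuel handling gave no call. None of 8 other glucose transporters passed, with Slc2a12 at 0.36 and Slc2a9 at -0.79 (unadjusted p = 0.0217 and 0.0498, limma). Slc2a9 was dim, at a mean of 3.42 in Fgf10+/- arrays and 4.21 in wild-type arrays. None of 17 genes of pyruvate and lactate handling passed, nor did any have an unadjusted p below 0.05, with Ldhd, a D-lactate dehydrogenase, at 0.57 and the lactate carrier Slc16a8 at -0.90, which were 0.339 and -0.363 without wild-type array 4. Slc16a8 was dim, at means of 3.30 in Fgf10+/- and 4.20 in wild-type arrays. Fgf10+/- arrays 1 and 4 read it at 2.68 and 2.56, below the filter level. In gluconeogenesis none of 5 passed and 2 had an unadjusted p below 0.05 (limma). These were Fbp1 at -1.06 (SE 0.33) and G6pc3 at 0.24 (SE 0.10). Fbp1 was also dim, at means of 3.35 in Fgf10+/- and 4.41 in wild-type arrays. None of 15 genes of glycogen metabolism passed or had an unadjusted p below 0.05 (limma), with Pgm1 at 0.15 and Gys1 at 0.21. In the pentose phosphate pathway, which makes NADPH, none of 7 passed and 1 had an unadjusted p below 0.05. This was transketolase, Tkt, at 0.49 (SE 0.13, limma adjusted p = 0.132), which was called without wild-type array 3 (adjusted p = 0.0395).

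Of the relatives of the members none was called. None of 6 other adenylate kinases passed or had an unadjusted p below 0.05 (limma), with Ak3, which also works in the mitochondrial matrix, at -0.10 (SE 0.08) and Ak7 at 0.58 (SE 0.35; 0.278 without wild-type array 4), beside 0.97 for Ak4. The difference between Ak4 and its relatives was not tested. None of 13 other carbonic anhydrases passed or had an unadjusted p below 0.05 (limma), with Car2 at 0.28 (SE 0.13) and Car3 at 0.83 (SE 0.39). All 4 wild-type arrays read Car3 below the filter level, at 2.35 to 2.56, so it passed the filter through the Fgf10+/- arrays alone. In the HIG1 and BNIP families none of 6 passed and 2 had an unadjusted p below 0.05 (limma), Bnip2 at -0.22 (SE 0.07; -0.432 with features averaged) and Higd1c at -1.34 (SE 0.55), the latter with a mean of 2.15 in Fgf10+/- arrays, below the filter level, and at -0.715 without wild-type array 1. None of 6 NDRG and prolyl 4-hydroxylase genes passed or had an unadjusted p below 0.05 (limma), with Ndrg4 at -0.26 and P4ha3 at -0.55, which ran from -0.358 to -0.132 and from -0.758 to -0.292 with 1 array left out.

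**Figure D5:**
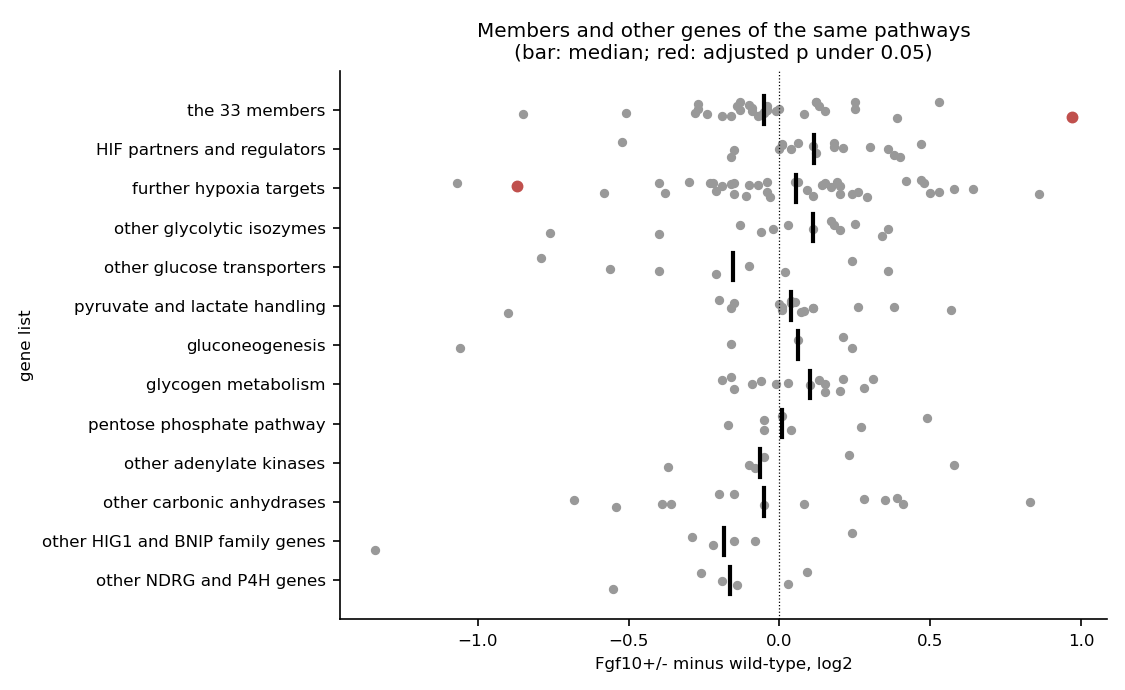
Differences (horizontal axis, Fgf10+/- minus wild-type, log2) of the 33 members and of 154 other tested genes in 12 lists, with 1 point for each gene, a bar at each median and red points at an adjusted p below 0.05. Ak4 in the top row and Loxl2 among further hypoxia targets are the red points, and the medians lie between -0.19 and 0.12.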

How the data were processed

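The deposited table held log2 intensities of 62976 features on 8 one-colour arrays. The columns had nearly identical quantiles, as after quantile normalization by the authors, so they were used as deposited; the submitters' processing notes name limma, and the sources used here do not state the background correction. Symbols came from the platform annotation (31465 features with 1 symbol, 31511 without), of which 29050 were matched by accession to RefSeq (GRCm38.p6). Features with missing values (189) or a mean below the 30th percentile (2.76) were left out, and the brightest feature stood for a gene. The test was that of limma 3.58.1 under R 4.3.3 (lmFit, eBayes with a variance trend), two-sided, with Benjamini-Hochberg adjustment over 17234 genes, and called at an adjusted p below 0.05. The fit was tested on simulated data. Errors are standard errors (SE) or SDs, intervals are 95% intervals from the fit, and arrays have no depth, so their number limits the precision.

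The members and lists were chosen with earlier results of these data known. The text names all 33 members, Fgf10, Xist, every called gene of a list and up to 2 others with the smallest unadjusted p; array values are given for members with an unadjusted p below 0.05 and for HIF subunits and sensors. Loxl2 and Tfrc array values were added after they were seen. Alternatives were other filters, scalings and weights, averaged features, no variance trend, the Xist covariate, a replicate block, another threshold and each array left out.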

Additional observations from a re-analysis of the deposited data

Results flagged for a closer look

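In 3 of the 66 groups of 4 arrays formed by the 33 members, 1 array lay far from the others of its group by Dixon's test at its 95% critical value; chance alone gives about 1 in 20 groups, which is as many. Pdk1 read 6.55 in Fgf10+/- array 2, where the nearest array of the group read 6.94. P4ha1 read 7.08 in wild-type array 1, where the nearest read 7.30. Aldoa read 14.48 in wild-type array 3, where the nearest read 14.64. Without the array concerned the difference of Pdk1 was 0.632 in place of 0.53, that of P4ha1 0.0647 in place of 0.12 and that of Aldoa -0.135 in place of -0.09. None of the 3 genes passed in any run.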

How the results depend on the processing

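Of 33 members, 23 kept the sign of their difference under all 19 settings. The other 10, none of them called, reversed under at least 1. Several of the settings could not turn a sign. The other filters, the fit without the variance trend, the replicate block and the other threshold leave a member's difference unchanged. The sign of Hk1 turned with the Xist covariate (-0.0083), cyclic loess (-0.0025) and averaged features (-0.0601), that of Pfkp with averaged features (0.285), that of Slc2a1 with array weights (0.0074), and with Fgf10+/- array 3 and wild-type array 1 both left out, a setting chosen after seeing the data, those of Slc2a1 (0.11) and Ldha (0.00603). With 1 array left out, values ran from -0.0902 to 0.00999 for Hif1a, -0.154 to 0.257 for Egln1, -0.093 to 0.084 for Slc2a1, -0.0418 to 0.0402 for Hk1, -0.0997 to 0.0165 for Gpi1, -0.149 to 0.018 for Pfkm, -0.2 to 0.014 for Pfkp, -0.00199 to 0.132 for Pkm, -0.105 to 0.00011 for Ldha and -0.057 to 0.385 for Car9. The count of called members, 1, was 0 with the Xist covariate (Ak4 adjusted p = 0.068), without the variance trend (0.173), with the replicate block (0.0788) and with both arrays left out (0.137), 2 at a threshold of 0.1, where Adm joined Ak4, and 0 to 1 with 1 array left out. The members' median ran from -0.0854 to -0.0326 in those runs. All 137 genes called became 80 with the Xist covariate, 1 without the variance trend, 278 at the threshold of 0.1 and 34 to 173 with 1 array left out. The pathway lists held 3 called genes with the 50th percentile filter and with array weights, 2 with averaged features, 0 without the variance trend, 4 at the threshold of 0.1 and 1 to 3 with 1 array left out. The Fgf10 difference ran from 0.14 to 0.35 with 1 array left out and was 0.23 with the replicate block. For same-numbered arrays the deviations from the group means correlated at -0.0642 to 0.0675, and for differently numbered arrays at -0.0714 to 0.0784. Such correlations cannot exclude a shared litter or shared handling, which the sources used here do not state. The replicate block gave 116 called genes. The causes of these changes were not tested. The table holds no background level, so whether dim members such as Egln1 and Car9 lay above background is unknown.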
